A study of Homo sapiens with 2 samples.

Results

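The SLC26 genes encode membrane proteins that carry anions across the cell surface and internal membranes. Gene names SLC26A1 to SLC26A4 and SLC26A6 to SLC26A11 were followed on the arrays after knockdown of SET7/9, and they made up 10 of the 25940 gene names and 13 of the 34127 gene probes. The genes were taken for their family name, and the family was chosen by measured values, since it was known that the ratio of SLC26A1 was below 0 in both cell lines and that of SLC26A9 had opposite signs. Their ratios are therefore given as a description, with no test.

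Most SLC26 proteins exchange chloride, bicarbonate, sulfate, oxalate or iodide, and some act as chloride channels. In the stomach, chloride and bicarbonate transport by the epithelium feeds acid secretion by parietal cells and the alkaline layer that covers surface cells. SET7/9, encoded by SETD7, is a lysine methyltransferase that modifies histone H3 and a number of other proteins.

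RNA came from MKN74 and MKN45, established human gastric cancer cell lines, taken 48 hrs after electroporation of siRNA at 50 nM. In each line, cells given negative control siRNA were labelled with Cy3 and cells given SET7/9 siRNA with Cy5, and both were hybridised to 1 two-colour Agilent array per line. There was no dye swap and no second array of either line, so dye and siRNA cannot be told apart and no spread between cultures is known. Which SET7/9 siRNA sequence was used on the arrays is not given in the sources used here.

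Each log2 ratio below is SET7/9 siRNA over control siRNA, and its error is that of the scanner software's error model for the spots of 1 array, not a spread between cultures. Signals are background-subtracted and dye-normalized brightness in scanner units. They rank probes by brightness and were not used to compare the RNA level of one gene with that of another. A channel was called well above background by the scanner software. Probes with no channel at that level on 50% or more of their spots were set aside, and 1.5-fold (0.58 on the log2 scale) was used as the cutoff.

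The targeted gene was lower on both arrays. A SETD7 probe had signals of 369 with control siRNA and 90.1 with SET7/9 siRNA in MKN74, and of 197 and 51.2 in MKN45. The log2 ratios were -2.03 (error 0.28) and -1.95 (error 0.28), and -1.36 and -0.99 with normexp background correction and loess normalization. That setting adds an offset of 50 to each channel, which makes the ratios of dim spots smaller in size. The other SETD7 probe read 0.24 (error 0.22) and -0.23 (error 0.21). All 5 epithelial markers looked at (CDH1, EPCAM, KRT8, KRT18 and KRT19) were well above background in both channels of both arrays. Of 7 markers of other cell types, 1 reached this in MKN74 and 3 did in MKN45. The 60-base probes that were spotted repeatedly had a pooled SD of 0.087 on the log2 scale in MKN74 and 0.0987 in MKN45, and 0.221 and 0.257 among those with a Cy3 signal under 50.

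The probes that carry the results are shown by their first 30 bases, to show which stretch of each transcript was read. Positions are those of the whole probe on GRCh37, and no base is marked by capitals. The exon or UTR that each probe lies in was not analysed here. SLC26A1 and SLC26A11 each had a pair of probes that lay far apart in the gene, 9125 and 27444 bases from each other.
SLC26A1, NM_022042, chr4:982406-982465, minus strand: aaaggaggccctctgatcacacgcaggacc
SLC26A1, NM_134425, chr4:973221-973280, minus strand: agaaacagcttccagcaacacccatggcaa
SLC26A9, NM_052934, chr1:205882365-205882424, minus strand: ctgctggaatatttggaaaagaacactctt
SLC26A11, NM_173626, chr17:78227156-78227215, plus strand: tacctgtccgtcagtgtgtggatgtatgtt
SLC26A11, NM_001166347, chr17:78199652-78199711, plus strand: agaacatccccaggccgttcttcctgcagg

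Of the family, 5 genes were measured in both channels of both arrays, namely SLC26A1, SLC26A2, SLC26A6, SLC26A9 and SLC26A11. SLC26A3, SLC26A4, SLC26A7 and SLC26A8 were not well above background in either channel of either line, and SLC26A10 was so in 1 channel of MKN45 alone. The plot of signals by probe shows these groups.

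**Figure D1:**
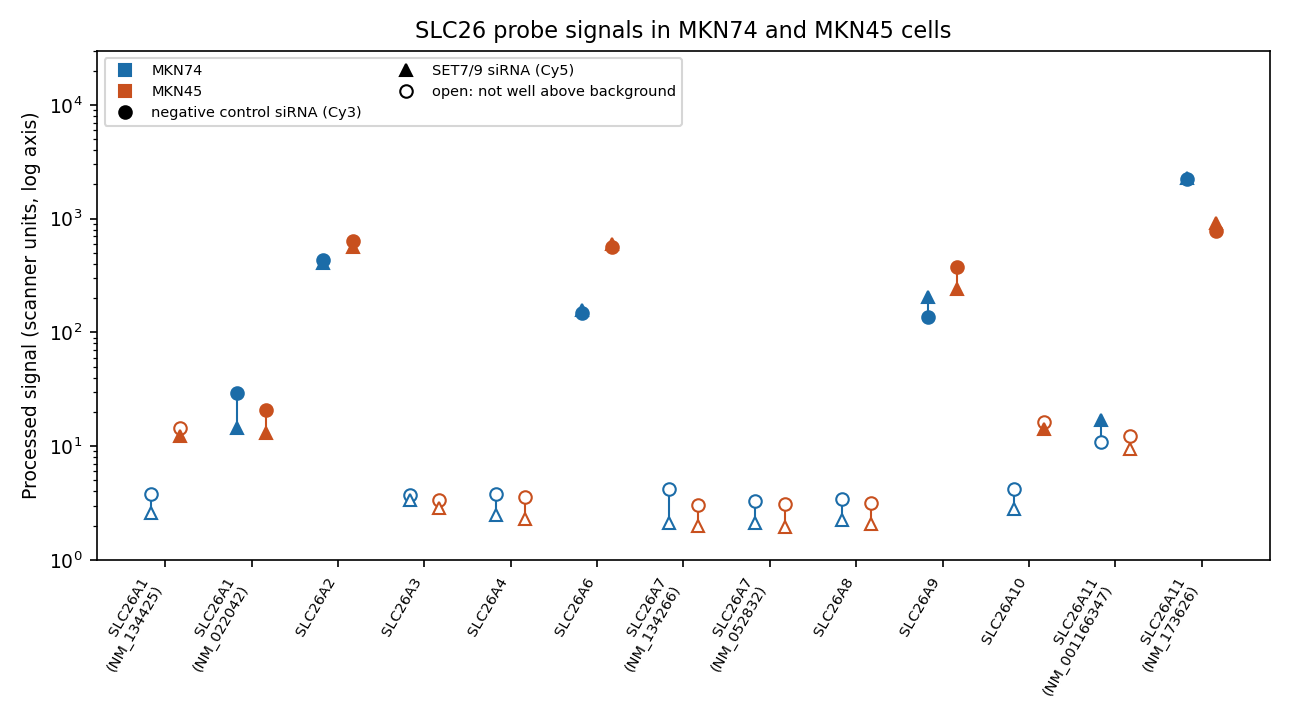
Processed signal of each of the 13 SLC26 probes in scanner units on a log axis, with control siRNA (Cy3) as circles and SET7/9 siRNA (Cy5) as triangles, MKN74 in blue and MKN45 in orange, 1 array per line, and open symbols for channels not well above background. SLC26A9 is the one probe with both channels well above background in both lines whose triangle lies above the circle in MKN74 (207 against 136) and below it in MKN45 (238 against 377).

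SLC26A9, a chloride transporter and channel of airway and gastric epithelium, was higher with SET7/9 siRNA in MKN74 and lower in MKN45. In MKN74 its signal was 136 with control siRNA and 207 with SET7/9 siRNA. In MKN45 the signals were 377 and 238. The control signals of the lines were thus further apart than the signals after knockdown. The log2 ratio was 0.60 (error 0.22) in MKN74, 1.52-fold higher, and -0.66 (error 0.21) in MKN45, 1.58-fold lower.

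The difference of SLC26A9 between the lines, MKN45 minus MKN74, was -1.27 (combined error 0.30). Of the 17362 probes measured in both channels of both arrays, 14 (0.0806%), SLC26A9 included, differed by at least as much in either direction. The median size of the difference was 0.114. SLC26A9 was the 1 probe of the 17362 that passed 1.5-fold in opposite directions, a share of 0.00576%. The family was chosen with these opposite directions known, so both shares are description only. In both lines SLC26A9 lay just past the cutoff. With normexp and loess the ratios were 0.583 and -0.42, of which the first lay just under the cutoff of 0.585 and the second further inside it. In MKN74, 1.32% of the 2576 probes with a Cy3 signal within 1.5-fold of that of SLC26A9 were lower past the cutoff and 0.776% were higher. In MKN45 the shares were 0.358% and 0.325% of 3074 such probes.

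**Figure D2:**
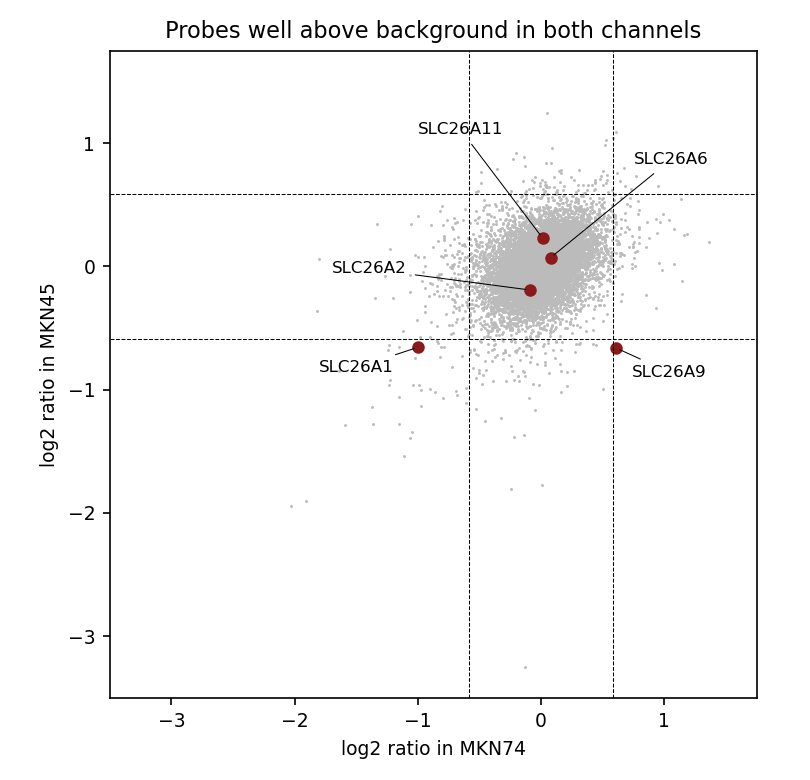
Log2 ratio of SET7/9 siRNA over control siRNA in MKN74 (x axis) against MKN45 (y axis) for the 17362 probes well above background in both channels of both arrays (grey), with the 5 SLC26 probes among them in red and 1.5-fold as dashed lines. SLC26A9 lies at 0.60 and -0.66, SLC26A1 at -1.00 and -0.65, and the other SLC26 probes lie inside the dashed lines.

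SLC26A1, a sulfate and oxalate transporter best known from liver and kidney, had a dim signal that was lower with SET7/9 siRNA in both lines. Its NM_022042 probe read 29.0 with control siRNA and 14.6 with SET7/9 siRNA in MKN74. In MKN45 it read 20.6 and 13.1. The log2 ratio was -1.00 (error 0.36) in MKN74, 1.99-fold lower, and -0.65 (error 0.40) in MKN45, 1.57-fold lower. Among the 17362 probes measured in both channels of both arrays, 36 (0.207%), SLC26A1 included, were lower past the cutoff in both lines. The family was chosen with the lower SLC26A1 ratios known, so this share is description only.

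All 4 channels of this SLC26A1 probe were well above background, but not far from it. The lowest signals of any probe so called were 17.4 in Cy3 and 9.96 in Cy5 in MKN74, and 15.9 and 8.89 in MKN45. Before subtraction, the Cy3 spot had a mean brightness of 57.3 over a local background of 20 in MKN74 and of 42.1 over 20 in MKN45. The Cy5 spot had 78.4 over 29 and 62.6 over 32. Of the probes measured in both channels, 5.75% in MKN74 and 1.87% in MKN45 had a Cy3 signal at or below that of SLC26A1.

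Ratios past the cutoff were more common among probes this dim. Of 2192 probes in MKN74 with a Cy3 signal within 1.5-fold of that of SLC26A1, 6.34% were lower and 2.10% higher past the cutoff. In MKN45, 9.70% of 1690 such probes were lower and 4.26% higher. With normexp and loess the SLC26A1 ratios were -0.26 and -0.087, both inside the cutoff. The offset of 50 exceeds all signals of this probe, so that setting shrinks its ratios and cannot decide whether they pass the cutoff. The other SLC26A1 probe, NM_134425, was not well above background in either channel in MKN74, at 3.82 and 2.60. In MKN45 it read 14.5 and 12.3, of which the Cy5 signal was well above background, with a ratio of -0.24 (error 0.49).

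**Figure D3:**
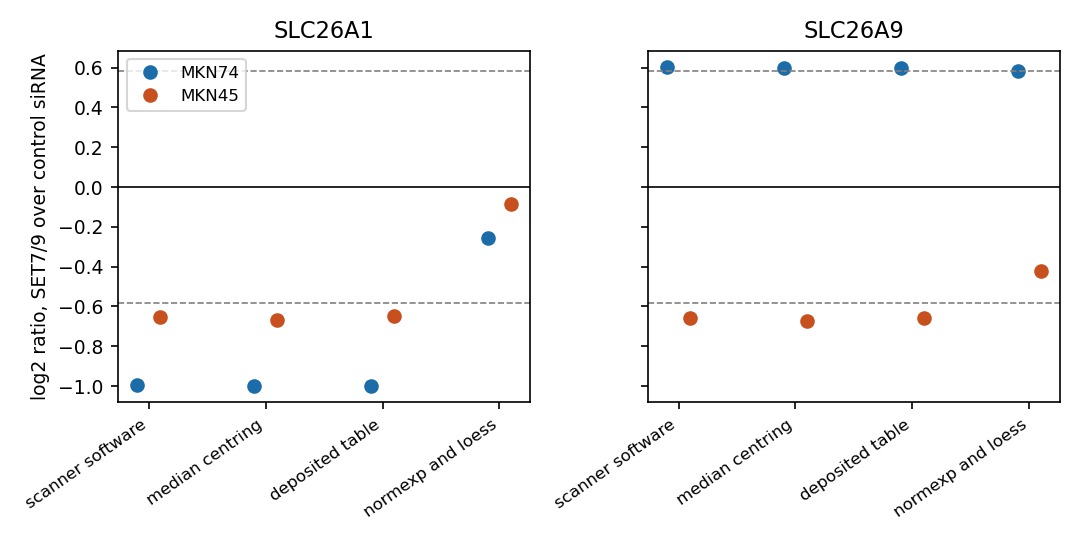
Log2 ratio of SLC26A1 (NM_022042 probe) and SLC26A9 in MKN74 (blue) and MKN45 (orange) under the scanner software's values, median centring, the deposited table and normexp with loess, 1 array per line, with 1.5-fold as dashed lines. The SLC26A1 ratios of -1.00 and -0.65 are -0.26 and -0.087 under normexp with loess, whose offset of 50 shrinks the ratios of dim spots. SLC26A9 has opposite signs under the scanner software's values and under normexp with loess. Median centring and the deposited table hold nearly the same values as the scanner software and could not change its signs.

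The other measured members lay inside the cutoff in both lines. SLC26A2, a sulfate transporter that supplies sulfate for proteoglycans and is mutated in diastrophic dysplasia, read 436 with control and 410 with SET7/9 siRNA in MKN74, and 642 and 562 in MKN45. Its ratios were -0.090 (error 0.20) and -0.19 (error 0.21). SLC26A6, a chloride, bicarbonate and oxalate exchanger of many epithelia, read 149 and 157 in MKN74 and 569 and 598 in MKN45. Its ratios, 0.077 (error 0.21) and 0.072 (error 0.20), were smaller than their errors.

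SLC26A11, a sulfate transporter also described as a chloride channel, had 1 bright and 1 dim probe. The NM_173626 probe read 2255 and 2273 in MKN74 and 779 and 914 in MKN45. Its ratios were 0.012 (error 0.20) and 0.23 (error 0.21). The NM_001166347 probe read 10.9 and 16.8 in MKN74, with a ratio of 0.63 (error 0.51). Only its Cy5 signal was well above background there, and with the Cy3 signal set to the lowest one so called there was no bound above 1-fold. In MKN45 it read 12.3 and 9.38, and neither channel was well above background.

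SLC26A10, listed in the current gene table as the transcribed pseudogene SLC26A10P, read 4.23 and 2.80 in MKN74, where neither channel was well above background. In MKN45 it read 16.4 and 14.1, the Cy5 signal alone was well above background, and the ratio was -0.21 (error 0.50). SLC26A3, the chloride and bicarbonate exchanger of colon, SLC26A4, the pendrin of thyroid, kidney and inner ear, SLC26A7, of the parietal cell, kidney and thyroid, and SLC26A8, of the male germ line, gave Cy3 signals of 3.06 to 4.24 and Cy5 signals of 1.94 to 3.34 per probe. SLC26A7 had 2 probes. SLC26A3 had 10 spots on each array, whose single Cy5 signals lay between 2.07 and 6.56 in MKN74 and between 1.98 and 5.09 in MKN45. No ratio is given for these 4 genes, because their levels in these cells were not detectable.

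**Figure D4:**
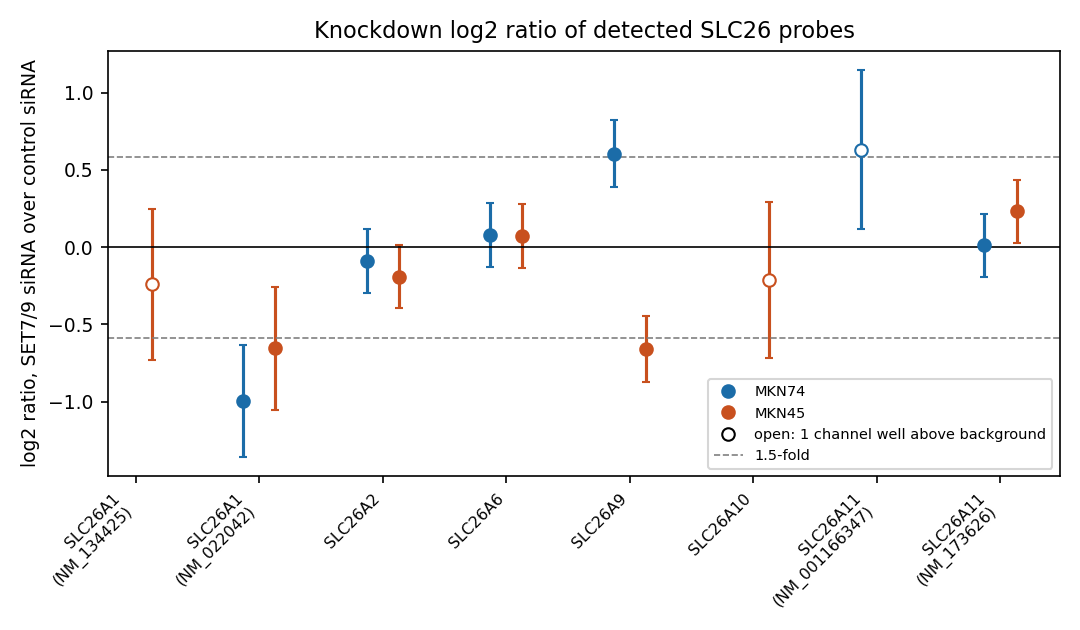
Log2 ratio of SET7/9 siRNA over control siRNA for the SLC26 probes kept in MKN74 (blue) or MKN45 (orange), 1 array per line, with bars for the scanner software's error of the ratio, open symbols where 1 channel was well above background, and 1.5-fold as dashed lines. SLC26A9 lies at 0.60 and -0.66 and SLC26A1 at -1.00 and -0.65. The bars hold no spread between cultures, so whether they overlap is no test of a difference between the lines.

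Counted over the family, 6 probes were kept in MKN74, of which 1 was lower and 2 were higher past the cutoff, with a median ratio of 0.044. Over all kept probes of MKN74, 1.76% were lower, 3.78% were higher and the median was 0.0056. In MKN45, 7 probes were kept, of which 2 were lower and 0 higher, with a median of -0.21. There, 1.97% of all kept probes were lower, 4.81% were higher and the median was 0.014. Of the 5 probes measured in both channels, 1 was lower and 1 higher in MKN74, where 1.45% and 0.64% of all such probes were. In MKN45, 2 were lower and 0 higher, where 1.62% and 0.814% of all such probes were. These counts rest on SLC26A1, SLC26A9 and, in MKN74, the dim SLC26A11 probe, and nothing is read from them since the family was chosen by these ratios.

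The levels of the 5 measured members were also set side by side between the lines. After scaling of the channels between arrays, SLC26A6 was 4.19-fold higher in MKN45 than in MKN74 with control siRNA and 4.17-fold higher with SET7/9 siRNA. SLC26A2 was 1.76-fold and 1.64-fold higher in MKN45. The bright SLC26A11 probe was 2.36-fold and 2.03-fold lower in MKN45. For these 3 genes the difference between lines was thus nearly the same with either siRNA. This restates the small difference of their log2 ratios between the lines and is no further observation.

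For SLC26A9 the difference between lines was not the same with either siRNA. This too restates the difference of its log2 ratios between the lines and is no further observation. Its level was 2.92-fold higher in MKN45 than in MKN74 with control siRNA and 1.21-fold higher with SET7/9 siRNA. The SLC26A1 level was 2.29-fold lower in MKN45 with control siRNA and 1.81-fold lower with SET7/9 siRNA. With control siRNA the log2 difference was -1.19, and it was -0.31 when each array was scaled to its 75th percentile instead. With 1 array per line, the line and the array cannot be told apart. Of the 17414 probes measured in the control channel of both arrays, 35.1% differed by at least 1 on the log2 scale. The control differences of SLC26A6 and SLC26A9, at 2.07 and 1.55, were larger than 1 in size. So were those of the bright SLC26A11 probe and SLC26A1, at -1.24 and -1.19. That of SLC26A2 was smaller, at 0.82.

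The genes next to SLC26A1 and SLC26A9 in the current gene table lay inside the cutoff where they were measured. IDUA, which encodes a lysosomal enzyme that degrades glycosaminoglycans and overlaps SLC26A1, read 71.7 and 71.8 in MKN74 and 146 and 173 in MKN45, with ratios of 0.0013 (error 0.22) and 0.25 (error 0.21). DGKQ, a diacylglycerol kinase gene next to SLC26A1, had ratios of 0.085 (error 0.20) and -0.079 (error 0.20). RAB7B, a small GTPase gene next to SLC26A9, had 0.29 (error 0.22) and 0.40 (error 0.26). PM20D1, on its other side, was not well above background in MKN74 and had 1 probe at -0.13 (error 0.36) in MKN45. Neither SLC26A9-AS1 nor LOC124900646 had a probe of that name.

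The nearest genes were found from single probes, by Euclidean distance between pairs of ratios over the 2 arrays. Nearest to SLC26A1 were AGSK1 (-0.98 in MKN74 and -0.57 in MKN45, distance 0.083), LOC100132249 (-1.02 and -0.74, distance 0.089) and COL24A1 (-0.90 and -0.57, distance 0.12). Nearest to SLC26A9 were LOC344887 (0.44 and -0.64, distance 0.16), WDR13 (0.42 and -0.63, distance 0.18) and INPP5F (0.42 and -0.51, distance 0.24). In MKN74, none of the last 3 reached 1.5-fold. In MKN45, INPP5F, AGSK1 and COL24A1 did not reach it either. A nearest probe need not speak for its gene. Another AGSK1 probe had -0.15 in MKN74 and -0.065 in MKN45, and another WDR13 probe had -0.0056 and 0.045.

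Genes that work beside the SLC26 proteins were each read by the brightest of their probes. Their counts stand beside the shares of all kept probes past the cutoff, which were 1.76% lower and 3.78% higher in MKN74 and 1.97% lower and 4.81% higher in MKN45. Of 19 bicarbonate and proton exchangers of the SLC4 and SLC9 families, 12 were kept in MKN74 and 15 in MKN45, with 0 past the cutoff in MKN74 and 2 higher in MKN45. Their median ratios were 0.016 and -0.0014. SLC4A5, a sodium bicarbonate cotransporter, was the 1 gene of the 5 lists described here that passed the cutoff by its brightest probe with both channels well above background. It read 35.5 and 53.7 in MKN45, with a ratio of 0.60 (error 0.25), and its ratio was 0.35 (error 0.31) in MKN74. With normexp and loess it was 0.19 in each line.

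Of 15 genes of the carbonic anhydrase family, 6 were kept in MKN74 and 10 in MKN45, with 1 higher past the cutoff in each and medians of -0.095 and -0.074. Of 23 genes for chloride channels and parietal cell ion transport, 11 and 13 were kept, with 1 higher in each line, 1 lower in MKN45 and medians of 0.094 and 0.15. Of these, some are named after their values were seen. CFTR, the chloride channel that SLC26 exchangers are known to bind, and ATP4B, of the gastric proton pump, were not well above background in either line. Others of this list, among them ANO1 and KCNQ1, had a probe well above background in both channels in each line. SLC12A2, which loads cells with chloride, read 295 and 342 in MKN74 and 2703 and 3397 in MKN45. Of 11 genes of sulfate uptake and activation, 8 and 9 were kept, with medians of -0.076 and -0.037 and 0 past the cutoff. Of 12 genes for PDZ scaffolds, kinases and other regulators of SLC26 exchangers, 9 and 11 were kept, with medians of -0.082 and -0.015 and 0 past the cutoff.

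The other genes of these lists past the cutoff had 1 channel well above background, and are named after their values were seen. CA13, SLC4A8, ATP4A and KCNE2 were kept through Cy5 alone and CLIC6 through Cy3 alone. The filter thus favoured the direction that each shows, and the bounds below take no account of the error. CA13, a cytosolic carbonic anhydrase, had a bound of 1.30-fold higher in MKN74 (ratio 0.98, error 0.42). In MKN45 its bound was 1.59-fold higher (ratio 0.67, error 0.34). SLC4A8, a sodium-driven chloride and bicarbonate exchanger, had a bound of 1.47-fold higher in MKN45 (ratio 0.59, error 0.36). CLIC6, of the chloride intracellular channel family, had a bound of 2.39-fold lower in MKN45 (ratio -2.21, error 0.63). ATP4A, the catalytic subunit of the proton pump, in MKN74 and KCNE2, a potassium channel subunit of parietal cells, in MKN45 were higher with no lower bound above 1-fold. A second, dimmer probe of CLCN4, a chloride and proton exchanger, read 35.9 and 17.7 in MKN74, a ratio of -1.02 (error 0.33), while its brighter probe read -0.41 (error 0.21). With normexp and loess the dimmer CLCN4 probe had -0.31.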

How the data were processed

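Total RNA was measured on 2 two-colour Agilent arrays, 1 per cell line. The authors deposited scanner output of Agilent Feature Extraction 10.7.3.1 (version per the labels), holding the intensity of every spot on a linear scale and, from an error model, a log10 ratio (Cy5 to Cy3), its error and its p-value. The deposited series table gives log2 ratios to 2 decimals. The software subtracted background, put surrogates in place of signals not above it and normalized the dyes, so ratios of dim spots depend on these steps.

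Here, log10 ratios were converted to log2, and the spots of each probe were averaged after removal of controls and outliers. Probes were set aside unless 1 channel or both stood well above background on 50% or more of their spots. No spot was saturated (0). Where 1 channel was dim, a bound was computed from channels scaled between arrays (Aquantile, limma 3.58.1, R 4.3.3), with the dim channel at its own value or, where that was lower, at the lowest signal well above background; without a dye swap it is open to dye bias. Counting was done in Python 3.11.15 and tested on simulated data. Alternatives were normexp (offset 50) with loess, median centring, the deposited table, outlier spots kept, other filters, a 2-fold cutoff, the error model's p-value under 0.01, and another scaling or channel for control levels.

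Members, gene lists and the rule for named genes (SLC26 members, SETD7, list genes past the cutoff in both channels, neighbours and the 3 nearest genes) were chosen with earlier results of these data known. Of 13 member probes, 12 matched the GRCh38.p14 RefSeq table by accession, which gave names and neighbours only. Probe positions are on GRCh37 as the files give them. With 1 array per line there is no replicate, and the number of arrays limits the precision.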

Additional observations from a re-analysis of the deposited data

Results flagged for a closer look

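SLC26A9 moved in opposite directions on the arrays, higher with SET7/9 siRNA in MKN74 (log2 ratio 0.60) and lower in MKN45 (-0.66). MKN45 minus MKN74 was -1.27. With 1 array per line this difference was not tested.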

How the results depend on the processing

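With normexp and loess, the log2 ratio of SLC26A1 was -0.26 in MKN74 and -0.087 in MKN45 and that of SLC26A9 in MKN45 was -0.42, and 0 SLC26 probes passed 1.5-fold in either direction in either line, 0 were lower in both lines and 0 had opposite directions. In sign, 6 of 6 kept probes in MKN74 matched the scanner software's values, as did 6 of 7 in MKN45. The exception was the NM_134425 probe of SLC26A1, at -0.24 with the scanner software and 0.0044 with normexp and loess. At a 2-fold cutoff these counts were 0 as well. Without a filter on dim probes, 2 were lower in MKN74. With the deposited table, or with both channels well above background, 1 was higher in MKN74. With the error model's p-value, 1 was higher in MKN74, 1 was lower in MKN45 and 0 were lower in both lines. Median centring and keeping outlier spots moved none of the 20 values recomputed under each. Each kept SLC26 probe was read from 1 spot without an outlier flag, so keeping outlier spots did not test these values. Scaled to the 75th percentile, SLC26A1 was -0.31 in MKN45 minus MKN74 control level, and in the Cy5 channel SLC26A9 was 0.28. The causes were not tested. No paired analysis was possible because each line had 1 array, and leaving out an array leaves its line with no value. Signals of SLC26A1 near background limit its ratio, and the normexp offset of 50 makes that ratio smaller whatever the change in RNA.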

Other observations

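SLC26A5, the prestin of outer hair cells, was not among the genes followed above and had 2 probes. The NM_206883 probe read 40.1 with control siRNA and 45.6 with SET7/9 siRNA in MKN45, both well above background, with a log2 ratio of 0.18 (error 0.27). In MKN74 it read 8.64 and 10.3, and neither channel was well above background. The other probe was not well above background in either line.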
